A study of Mus musculus with 14 samples.

Results

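Genes of cholesterol synthesis, its regulation and cholesterol transport were followed through mouse hippocampal tissue that had been enzymatically dissociated or homogenised directly. The set was a fixed list of 27 gene symbols: 7 of the early mevalonate pathway, 11 of the squalene and sterol steps, 5 regulators and 4 transport genes. All 27 were found among the 22485 symbols of the gene table, and all 27 passed the filter on low counts that left 13063 genes for testing. 

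The libraries came from 3 subregions of the hippocampus of wild-type C57BL/6 mouse tissue: CA1, CA3 and the dentate gyrus (DG). Dissociated tissue spent 75 min at room temperature in artificial cerebrospinal fluid with 1 mg/ml of pronase, a mixture of proteases, and was then vortexed, spun and triturated in fluid with 1% FBS before RNA isolation, whereas control tissue went straight to the same RNA isolation kit. CA1 had 3 dissociated and 3 control libraries, CA3 had 2 and 2, and DG had 2 and 2. All 14 libraries are listed under 1 mouse, 1 job and 1 date in the authors' own annotation. Hence a p-value here reflects the spread among samples taken from a single animal, whose age and sex the sources do not state.

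Cholesterol in the adult brain is made locally, because lipoproteins of the blood do not cross the blood-brain barrier. Acetyl-CoA is turned through mevalonate into isoprenoid units and squalene, squalene is closed into lanosterol, and lanosterol is trimmed to cholesterol. When membrane sterol is low, SCAP escorts the SREBP transcription factors out of the endoplasmic reticulum, where INSIG proteins otherwise hold them, and the processed factors switch on the enzymes of the pathway. Glial cells, above all astrocytes, pack cholesterol into particles around apolipoprotein E, loaded by the ABCA1 and ABCG1 exporters, and oligodendrocytes make large amounts of it for myelin.

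Depth set how firmly each value could be read. Libraries held 65887 to 4782767 estimated counts after dissociation, against 1285654 to 6646655 in control tissue. In 3 dissociated libraries the total was under 500000: 135065 in CA1 replicate 2, 300812 in CA1 replicate 3 and 65887 in DG replicate 3. A floor of 3 counts there amounts to 20.5, 9.90 and 46.8 CPM (the count over the TMM-scaled size of the library). Of the members, 10 were at 0 in at least 1 dissociated library and none was at 0 in a control library. Those zeros numbered 17 in all, and 14 of them fell in the 3 shallow libraries.

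RNA of cell type markers also differed between the treatments. All 12 oligodendrocyte markers had positive fold changes after dissociation, with a median of 1.94 on the log2 scale. Their summed level was 1024 to 9639 TPM in dissociated libraries and 635 to 3862 TPM in controls. Of the 12, 10 were called higher by edgeR, in a comparison that called 0.773% of all genes tested. That count rested on the shallow libraries and the scale, with 1 marker called without the 3 shallow libraries, 1 on the log2(TPM + 1) scale and 6 without either CA1 control replicate 2 or CA3 dissociated replicate 4, while the medians stayed at 1.21 or above. Of 10 microglial markers, 7 rose, with a median of 1.71, and their sum was 786 to 2682 TPM after dissociation and 409 to 693 TPM in controls, and 4 were called without the 3 shallow libraries. None of 10 astrocyte markers passed the test (edgeR, 5 with an unadjusted p under 0.05, and 1 called by DESeq2), although all 10 fold changes were positive, or 7 on the log2(TPM + 1) scale, with a median of 0.63 and sums of 936 to 2943 TPM after dissociation and 1240.5 to 1925 TPM in controls. The 10 excitatory neuron markers, which identify the principal cells of all 3 regions, were all detected and none was called (edgeR, 2 with an unadjusted p under 0.05, and 1 called lower by DESeq2), with a median of −0.35 and sums of 3123 to 10684 TPM after dissociation and 8386 to 10182 TPM in controls. These are bulk samples, in which fewer cells of a type and less RNA per cell cannot be told apart. The part of these shifts in the results for cholesterol genes was not tested.

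Promoter sequence was examined because SREBP targets usually carry a sterol regulatory element beside a CCAAT box bound by NF-Y. RefSeq windows on GRCm38.p6, each covering 250 bases before and 50 after a start site, were held for 22 of the 27 members, as 32 windows of 300 bases. The sterol regulatory element searched for was TCACNCCAC, on both strands. It was found in 1 member, Hmgcs1, or 3.12% of member windows, against 1.24% of all 32851 windows. CCAAT, on both strands, was present for 18 members in 59.4% of member windows and 37.4% of all windows. The E-box CACGTG, a palindrome that SREBPs can also bind, was present for 6 members in 21.9% of member windows and 7.15% of all windows. A match describes the letters in these windows and was not tested as a binding site.

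The Idi1 window is shown because Idi1 was the member whose dissociated libraries lay above the controls in every region, and the Insig1 window because Insig1 is the feedback regulator with the largest fold change in its group. The stretch of Hmgcs1 is shown for its sterol regulatory element, which starts 137 bases before the RefSeq start site. For 28 of 32 member windows the last 20 bases lay in a transcript of the gene. The Hmgcs1 window was not among them, so its start site is uncertain. Capitals mark the matches, with CCAAT on the reverse strand reading as ATTGG, and all 3 sequences lie on the plus strand, at chr13:8885356-8885655 for Idi1, chr5:28071162-28071461 for Insig1 and chr13:119690189-119690247 for Hmgcs1.
Idi1: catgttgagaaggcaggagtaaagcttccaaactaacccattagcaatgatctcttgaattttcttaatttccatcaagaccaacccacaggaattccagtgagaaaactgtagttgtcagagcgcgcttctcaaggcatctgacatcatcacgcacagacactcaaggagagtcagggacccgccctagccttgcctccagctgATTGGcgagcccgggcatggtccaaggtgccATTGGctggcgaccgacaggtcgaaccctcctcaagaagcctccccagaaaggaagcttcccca
Insig1: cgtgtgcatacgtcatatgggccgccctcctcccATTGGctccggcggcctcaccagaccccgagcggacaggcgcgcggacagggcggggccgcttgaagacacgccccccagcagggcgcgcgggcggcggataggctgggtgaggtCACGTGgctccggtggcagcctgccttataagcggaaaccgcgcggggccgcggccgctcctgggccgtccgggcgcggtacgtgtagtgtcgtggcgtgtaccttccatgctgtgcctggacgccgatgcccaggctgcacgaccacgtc
Hmgcs1: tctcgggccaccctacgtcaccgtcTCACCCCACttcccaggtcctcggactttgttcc
Idi1 has 2 reverse-strand CCAAT boxes, both within 50 bases of its RefSeq start site, and neither of the other motifs. The GENCODE annotation starts Idi1 earlier, at chr13:8885501, and both boxes lie after that position. Insig1 has 1 CCAAT box and 1 E-box in its window.

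Levels in control tissue spanned a wide range on the per-length TPM scale. Apoe, the main lipid carrier made in the brain, was by far the most abundant member at 1441 ± 620.0 TPM (SD, n = 7 control libraries, as are the TPM values that follow). Hmgcs1, the enzyme that makes HMG-CoA, followed at 118 ± 31.4 TPM, and Srebf2, which encodes the SREBP that drives sterol synthesis, at 102 ± 27.6 TPM. Those values lie within 1 SD of each other. Scap, the escort protein, averaged 70.4 ± 15.7 TPM, Fdps 63.3 ± 19.5 TPM and Insig2 61.2 ± 17.5 TPM, again without separation. At the low end stood Hsd17b7, a reductase of the lanosterol-trimming steps, at 12.3 ± 3.82 TPM, the sterol carrier Stard4 at 9.83 ± 7.55 TPM and the exporter Abca1 at 8.03 ± 4.66 TPM. The remaining members lay between 14.2 and 57.7 TPM.

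**Figure D1:**
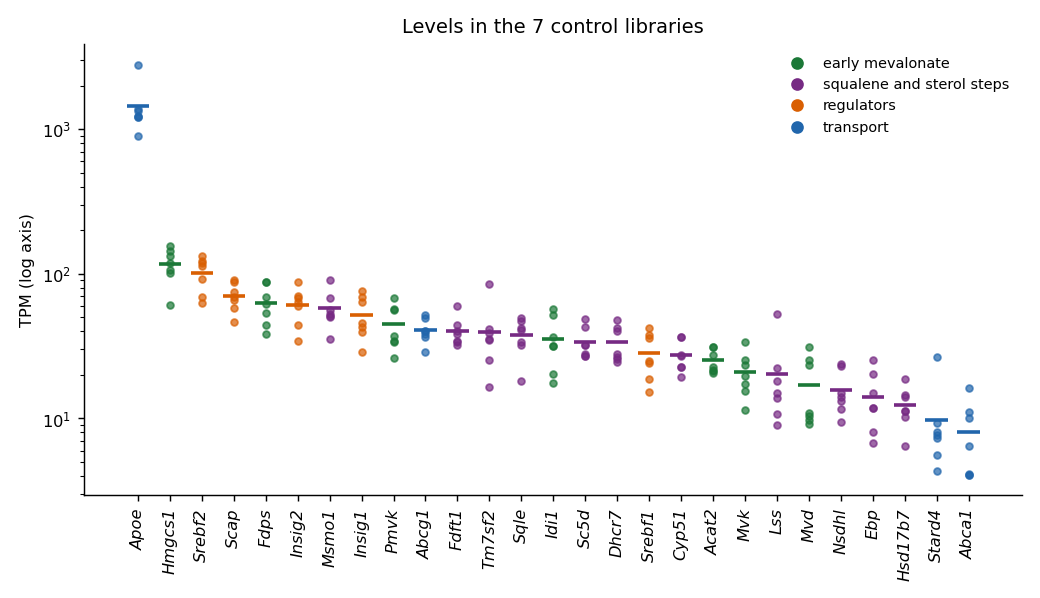
TPM (log axis) of the 27 genes in the 7 control libraries, ordered by mean, with points for libraries, bars for means and colours for roles. Apoe, at a mean of 1441 TPM, stands alone at the top, and the other 26 genes run from 118 TPM for Hmgcs1 down to 8.03 TPM for Abca1.

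Dissociated and control tissue were first compared over all 3 regions, with region as a term, to ask how tissue dissociation changes the transcriptome. By edgeR's quasi-likelihood test with Benjamini-Hochberg adjustment over all genes, no member was called at an adjusted p under 0.05, in a comparison that called 0.773% of all genes tested. At an unadjusted p under 0.05 there were 4 members, Apoe, Idi1, Insig1 and Hsd17b7, beside 1622 of all 13063 genes. DESeq2, run on the same counts, called 2 members, Apoe and Idi1, both higher after dissociation, in a comparison where it called 3.82% of the genes it gave an adjusted p. As a description, 19 of 27 members were positive and their median log2 fold change was 0.38, while 41.9% of all genes were positive with a median of −0.11. On the log2(TPM + 1) scale the members' median was −0.26 and that of all genes −0.64. The sign of the members' median thus depended on the scale, while on both scales it lay above the median of all genes. The 3 shallow libraries detected 36.6% to 46.3% of all genes, and controls 61.1% to 68.6%. The part of this in the median of all genes was not tested. Without CA1 dissociated replicate 3 the members' median was 0.22, and without the 3 shallow libraries 0.20. Standard errors of single members ran from 0.20 to 0.67 on the log2 scale, so most of these differences are smaller than what the libraries could resolve.

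**Figure D2:**
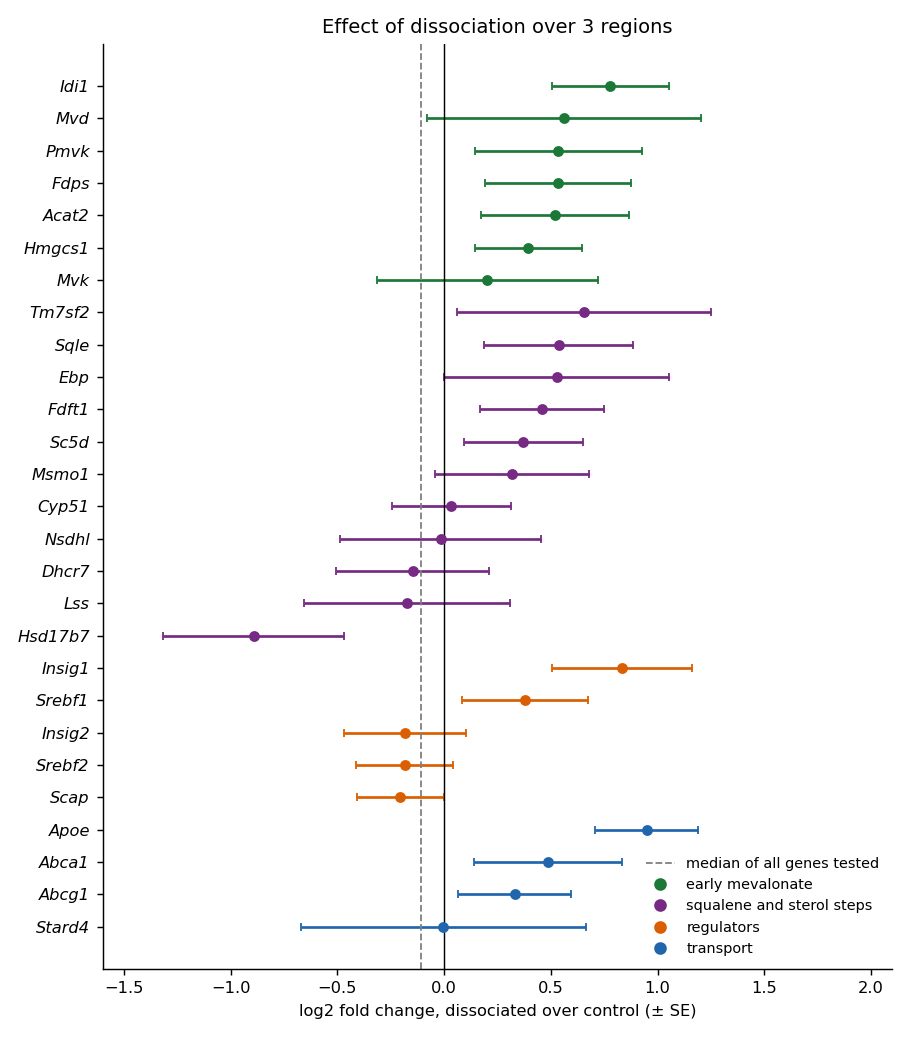
Log2 fold change of dissociated over control tissue in the fit over 3 regions, with SE bars, for the 27 genes ordered within role, beside the median of all genes tested (dashed, −0.11). All 7 early mevalonate genes lie right of 0, Mvk and Mvd changing sign on the log2(TPM + 1) scale, Hsd17b7 lies lowest at −0.89, and Apoe lies highest at 0.95.

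None of the 7 early mevalonate genes was called by edgeR (1, Idi1, by DESeq2), and all 7 were positive (median 0.53), although Mvk and Mvd had −1.18 and −0.78 on the log2(TPM + 1) scale, where the group median was 0.12. Without CA1 dissociated replicate 3 alone the group median was 0.34. Idi1 encodes the isomerase that interconverts the isoprenoid building blocks. In CA1 it had 40.0, 61.5 and 59.4 CPM after dissociation and 37.1, 33.6 and 36.7 CPM in controls. In CA3 it had 50.2 and 98.5 CPM after dissociation and 32.0 and 25.8 CPM in controls, and in DG 46.8 and 41.3 CPM after dissociation and 25.7 and 35.4 CPM in controls. The lowest of the 7 dissociated libraries thus stood above the highest of the 7 controls, with means of 56.8 ± 20.2 and 32.3 ± 4.83 CPM (SD, n = 7 each). Its log2 fold change was 0.78 ± 0.27 (SE) with an adjusted p of 0.230 by edgeR. The 46.8 CPM of DG replicate 3 rests on 3 counts.

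Hmgcs1, which condenses acetoacetyl-CoA into HMG-CoA, had 151, 185 and 320.1 CPM in dissociated CA1 and 145, 170.4 and 145 CPM in control CA1. It had 203 and 415 CPM after dissociation against 207 and 217 CPM in CA3 controls, and 234 and 122 CPM after dissociation against 226 and 92.4 CPM in DG controls. The groups overlapped in every region, and the highest values were those of CA1 replicate 3 and CA3 replicate 4 after dissociation. The log2 fold change was 0.39 ± 0.25 (adjusted p = 0.549, edgeR), with 0.23 without CA1 dissociated replicate 3, 0.22 without CA3 dissociated replicate 4 and 0.039 on the log2(TPM + 1) scale.

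Fdps makes farnesyl diphosphate, the branch point to squalene. It had 36.1, 27.4 and 69.3 CPM in dissociated CA1 and 17.9, 31.7 and 20.1 CPM in control CA1, and 53.0 and 64.1 CPM in dissociated CA3 against 25.3 and 30.0 CPM in control CA3. In DG the order was the other way, with 15.6 and 21.5 CPM after dissociation and 46.2 and 45.3 CPM in controls. The 15.6 CPM rests on 1 count in DG replicate 3. A floor of 3 counts there is 46.8 CPM, so that library cannot place Fdps below the controls. The groups overlapped in CA1 and did not in CA3 or DG, and the fit over regions gave 0.53 ± 0.34 (adjusted p = 0.557, edgeR), or 0.34 without CA1 dissociated replicate 3. A predicted gene on the same strand, Gm43738, is identical to Fdps over 929 bases and was at 0 except for 19 counts in CA3 replicate 4 and 5 counts in DG replicate 4, both dissociated, so reads may be divided between them.

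Acat2, the cytosolic thiolase that opens the pathway, had 31.3, 27.4 and 66.0 CPM in dissociated CA1 and 17.9, 19.4 and 19.7 CPM in control CA1. It had 28.0 and 48.3 CPM after dissociation against 25.7 and 28.3 CPM in CA3 controls, and 15.6 and 16.5 CPM after dissociation against 33.0 and 21.1 CPM in DG controls. The dissociated libraries were all higher in CA1, all lower in DG and mixed in CA3. The 15.6 CPM in DG rests on 1 count, and a floor of 3 counts there, 46.8 CPM, lies above both DG controls. The fold change over regions was 0.52 ± 0.35 (adjusted p = 0.570, edgeR), or 0.29 without CA1 dissociated replicate 3 and 0.12 on the log2(TPM + 1) scale. These counts are uncertain, because Acat3, with 97.7% identity over 1477 bases, was also counted, at 0 to 16 counts per dissociated library and 0 to 32 per control library.

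Pmvk, the second kinase of the mevalonate steps, had 21.2, 61.5 and 36.3 CPM in dissociated CA1 and 13.9, 12.3 and 14.8 CPM in control CA1. In CA3 it had 20.6 and 27.9 CPM after dissociation against 23.3 and 30.4 CPM in controls, and in DG 46.8 and 18.2 CPM after dissociation against 35.2 and 15.8 CPM in controls. The groups were apart in CA1 and overlapped in CA3 and DG, and the fold change was 0.54 ± 0.39 (adjusted p = 0.611, edgeR), or 0.36 without CA1 dissociated replicate 2 and 0.083 without the 3 shallow libraries. Mvd and Mvk, the decarboxylase and the first kinase, had 0.56 ± 0.64 and 0.20 ± 0.52, each at 0 in 2 dissociated libraries, and Mvd had 0.18 without CA3 dissociated replicate 4.

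Among the 11 genes of the squalene and sterol steps, 7 fold changes were positive with a median of 0.32, against 2 positive with a median of −0.50 on the log2(TPM + 1) scale, and none was called. That median was 0.011 without CA3 dissociated replicate 4, 0.12 without CA1 dissociated replicate 3 and 0.050 without the 3 shallow libraries. Fdft1, squalene synthase, had 58.7, 20.5 and 135 CPM in dissociated CA1 and 42.5, 49.9 and 38.5 CPM in control CA1. It had 59.2 and 74.4 CPM after dissociation against 44.7 and 62.9 CPM in CA3 controls, and 46.8 and 79.4 CPM after dissociation against 83.6 and 44.8 CPM in DG controls. The groups overlapped in all 3 regions, and the fold change was 0.46 ± 0.29 (adjusted p = 0.549, edgeR), or 0.19 without CA1 dissociated replicate 3 and −0.083 on the log2(TPM + 1) scale. Exons of Fdft1 and of Ctsb overlap on opposite strands, and the sources do not state the library strand, so reads there cannot be told apart. The same holds for Cyp51 with Akap9 and for Srebf1 with Rai1.

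Sqle, squalene epoxidase, had 58.7, 47.9 and 155 CPM in dissociated CA1 and 38.9, 50.5 and 38.5 CPM in control CA1. It had 49.3 and 128 CPM after dissociation against 52.9 and 56.3 CPM in CA3 controls, and 15.6 and 26.5 CPM after dissociation against 65.2 and 23.2 CPM in DG controls. As with Hmgcs1, CA1 replicate 3 and CA3 replicate 4 were the high dissociated libraries, and the groups overlapped in every region. The fold change was 0.54 ± 0.35 (adjusted p = 0.563, edgeR), or 0.22 without CA1 dissociated replicate 3, 0.28 without CA3 dissociated replicate 4 and −0.051 on the log2(TPM + 1) scale.

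Hsd17b7 was the only one of the 4 members with an unadjusted p under 0.05 that was lower after dissociation. It encodes the 3-ketosteroid reductase of the sterol steps. It had 12.6, 0 and 19.8 CPM in dissociated CA1 and 23.3, 23.4 and 28.6 CPM in control CA1. It had 16.0 and 28.8 CPM after dissociation against 32.0 and 24.2 CPM in CA3 controls, and 0 and 4.96 CPM after dissociation against 21.3 and 10.9 CPM in DG controls. The dissociated libraries lay below all controls in CA1 and DG and overlapped them in CA3. The zeros fell in CA1 replicate 2 and DG replicate 3, where a floor of 3 counts is 20.5 and 46.8 CPM. In DG that floor lies above both controls, so the 0 does not place Hsd17b7 below them. The 4.96 CPM of DG replicate 4 rests on 3 counts. Its log2 fold change was −0.89 ± 0.42 (adjusted p = 0.393, edgeR).

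Sc5d, the desaturase near the end of the pathway, had 25.6, 47.9 and 29.7 CPM in dissociated CA1 and 24.6, 25.9 and 26.9 CPM in control CA1. It had 35.4 and 48.3 CPM after dissociation against 43.7 and 29.6 CPM in CA3 controls, and 93.7 and 49.6 CPM after dissociation against 33.7 and 40.5 CPM in DG controls. The groups were apart in DG and overlapped in CA1 and CA3, and the fold change was 0.37 ± 0.28 (adjusted p = 0.622, edgeR). The other 7 genes of these steps, Lss, Cyp51, Tm7sf2, Msmo1, Nsdhl, Ebp and Dhcr7, had fold changes between −0.17 for Lss and 0.66 for Tm7sf2, and Tm7sf2 had 0.16 without CA1 dissociated replicate 3. Tm7sf2 shares 532 identical bases with its same-strand neighbour Vps51, so its reads may be divided.

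The 5 regulators did not lean one way: 2 fold changes were positive and the median was −0.18, with none called. Leaving out single libraries moved that median between −0.19 and −0.057 (the higher without DG dissociated replicate 4). Insig1, a sterol-induced brake on SREBP processing that is itself an SREBP target, had 56.6, 103 and 224 CPM in dissociated CA1 and 34.0, 50.2 and 51.0 CPM in control CA1. It had 88.4 and 126 CPM after dissociation against 75.8 and 52.9 CPM in CA3 controls, and 15.6 and 116 CPM after dissociation against 99.0 and 79.2 CPM in DG controls. All dissociated libraries were above the controls in CA1 and CA3, whereas in DG the 2 dissociated libraries fell on either side of them, the lower one resting on 1 count. The fold change over regions was 0.83 ± 0.33 (adjusted p = 0.296, edgeR), with 0.48 without CA1 dissociated replicate 3 and 0.13 on the log2(TPM + 1) scale. Its paralogue Insig2, which is controlled by other signals, had a fold change of −0.18 ± 0.29.

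The ratio of Insig1 to Insig2 in TPM was 1.28 to 1.50 in dissociated CA1 libraries and 0.613 to 0.850 in control CA1 libraries, which did not overlap. In CA3 it was 1.02 to 1.54 after dissociation and 0.583 to 1.56 in controls, and in DG 0.191 to 4.67 after dissociation and 0.872 to 1.06 in controls, so there the groups overlapped. Srebf1, whose products favour fatty acid genes, had a fold change of 0.38 ± 0.29, and Srebf2 and Scap had −0.18 ± 0.23 and −0.20 ± 0.20 (adjusted p = 0.632, 0.785 and 0.719, edgeR). The ratio of Srebf2 to Srebf1 in TPM was 0.587 to 0.831 in dissociated DG and 2.44 to 2.62 in control DG. The dissociated DG libraries together held 63 counts of Srebf2 and 58 of Srebf1, and DG replicate 3 was shallow. The Srebf2 to Srebf1 ratio overlapped between the groups in CA1, at 3.89 to 5.49 after dissociation and 3.40 to 7.49 in controls. It was 2.54 to 2.61 in dissociated CA3 and 2.74 to 2.80 in control CA3. Ratios were read as descriptions and were not tested.

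Of the 4 transport genes, 3 were positive and the median was 0.41, against 1 positive and a median of −0.15 on the log2(TPM + 1) scale, and none was called by edgeR. Apoe came closest to the threshold of all members. In CA1 it had 1254, 1327 and 601 CPM after dissociation and 534, 539.7 and 380.0 CPM in controls, in CA3 991 and 1487 CPM after dissociation and 584 and 654 CPM in controls, and in DG 2232 and 899 CPM after dissociation and 1377 and 627 CPM in controls. Dissociated libraries lay above all controls in CA1 and CA3, while in DG the groups overlapped. The log2 fold change was 0.95 ± 0.24 with an adjusted p of 0.0683 by edgeR, and 1.08 ± 0.27 with an adjusted p of 0.00373 by DESeq2. Over all 21 alternatives the fold change stayed between 0.67 and 1.16 and the adjusted p ran from 0.000193 to 0.248. With 1 library left out the edgeR adjusted p ranged from 0.0104 to 0.211, and Apoe was called without DG control replicate 2, CA1 dissociated replicate 3 or DG dissociated replicate 4. Apoe is made by astrocytes and microglia. The 10 microglial markers were all positive and 7 were called higher by edgeR, beside 0.773% of all genes. The 10 astrocyte markers were all positive (7 on the log2(TPM + 1) scale) and none was called by edgeR. The part of these markers was not tested.

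Abca1, which loads lipid onto apolipoprotein E, had 55.5, 27.4 and 62.7 CPM in dissociated CA1 and 76.5, 30.6 and 50.1 CPM in control CA1. It had 52.2 and 37.2 CPM after dissociation against 44.2 and 22.1 CPM in CA3 controls, and 0 and 76.0 CPM after dissociation against 21.3 and 20.3 CPM in DG controls. The groups overlapped in all 3 regions, with the DG libraries on both sides of the controls, and the fold change was 0.49 ± 0.35 (adjusted p = 0.602, edgeR), or 0.087 without DG dissociated replicate 4 and −0.26 on the log2(TPM + 1) scale. Abcg1, its partner exporter, had 0.33 ± 0.26 and Stard4, a cytosolic sterol carrier, 0.00 ± 0.67.

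**Figure D3:**
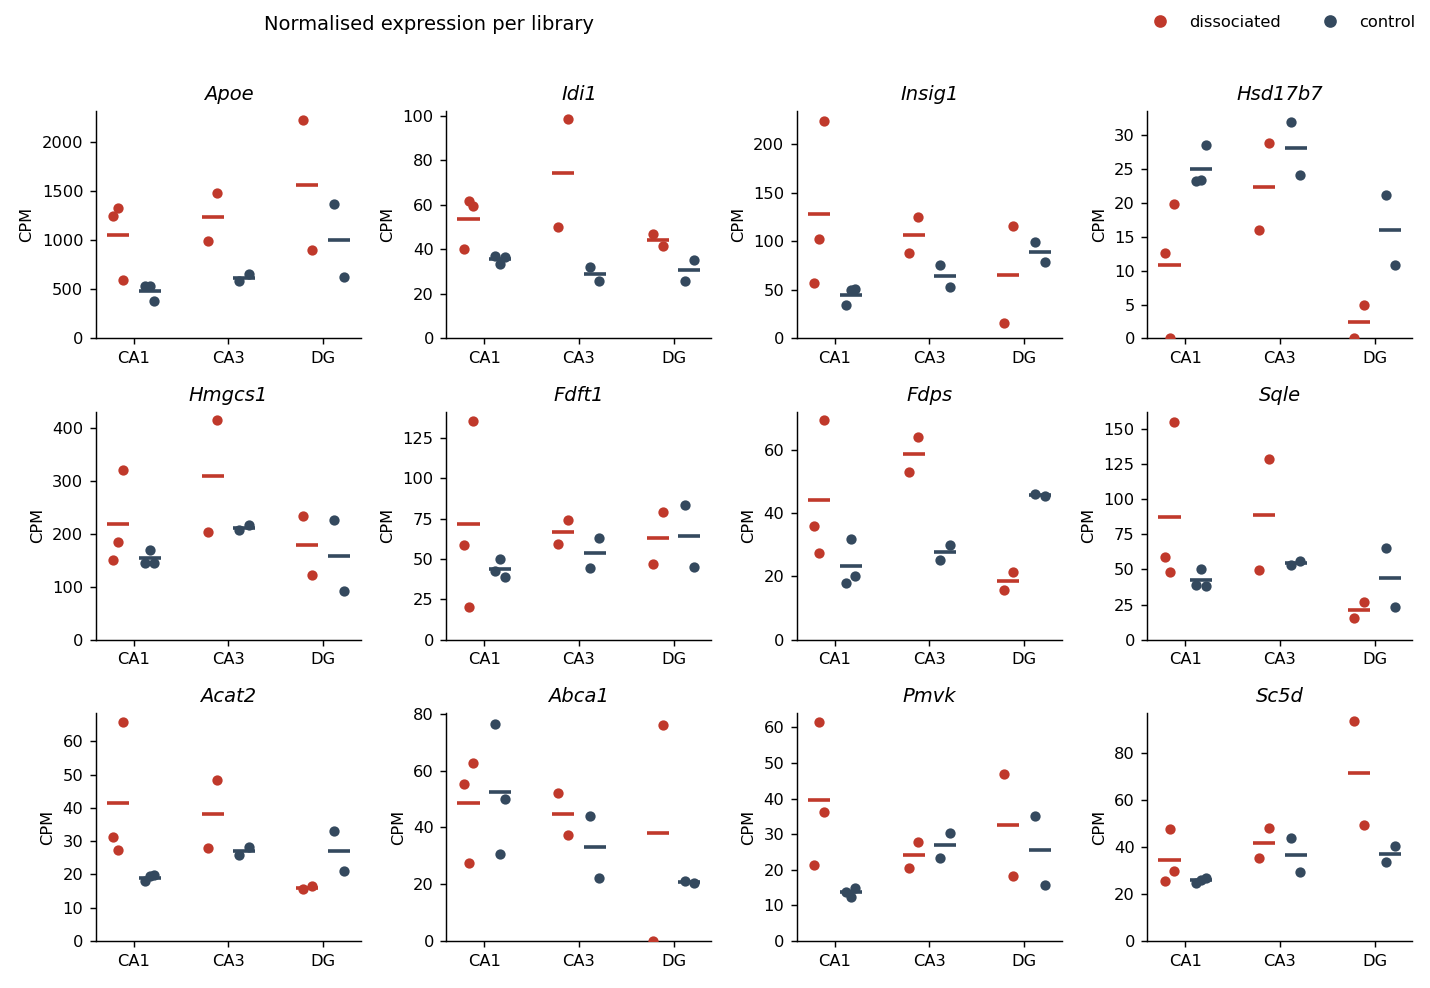
CPM per library (points) and group means (bars) for the 12 genes with the smallest unadjusted p in the fit over regions, with dissociated libraries left of controls in CA1, CA3 and DG. Idi1 is higher after dissociation in each region, with no dissociated library below 40.0 CPM and no control above 37.1 CPM, while Fdps and Acat2 are lower after dissociation in DG. In dissociated DG replicate 3 the Fdps and Acat2 points rest on 1 count each and the Idi1 point on 3 counts.

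Genes outside the set were read from 3 further lists of the same pathways. Of 11 tested genes of synthesis and regulation, none was called by edgeR or DESeq2, none had an unadjusted p under 0.05 by edgeR and the median log2 fold change was −0.03. Of 26 tested genes of uptake, efflux and turnover, 1 was called by edgeR and 6 by DESeq2, beside the 0.773% and 3.82% of all genes that these tools called. The edgeR call was Npc2, the lysosomal cholesterol carrier, which rose to 90.5 ± 62.8 CPM after dissociation, against 25.2 ± 8.58 CPM in controls, a log2 fold change of 1.69 ± 0.38 (adjusted p = 0.0322, edgeR). Npc2 was not called on the log2(TPM + 1) scale (1.22, adjusted p = 0.114), without the 3 shallow libraries (1.22, adjusted p = 0.299) or in 8 of 14 fits with 1 library left out: CA1 control replicate 2 or 3, CA3 control replicate 1 or 4, CA1 dissociated replicate 2 or 3, CA3 dissociated replicate 4 and DG dissociated replicate 3. Over all 21 alternatives its fold change stayed between 1.22 and 1.93, and its adjusted p ran from 3.93e-05 to 0.299. Its membrane partner Npc1 had 98.5 ± 39.5 CPM after dissociation and 46.1 ± 10.9 CPM in controls (0.99 ± 0.24, adjusted p = 0.0615), and DESeq2 called it (adjusted p = 0.000234, from that value to 0.215 over its alternatives). Among 12 SREBP-driven genes of fatty acid synthesis none was called by edgeR, and 4 had an unadjusted p under 0.05. Of these, Scd1, Scd2 and Fads1 were higher at 1.19, 0.77 and 0.66, and Pnpla3 was lower at −1.45. Of the 12 fold changes 11 were positive with a median of 0.36, or 6 with a median of −0.05 on the log2(TPM + 1) scale. DESeq2 called 3 of the 12. Scd2, the main brain stearoyl-CoA desaturase, had 1510 ± 739 CPM after dissociation and 839 ± 197 CPM in controls (0.77 ± 0.22, adjusted p = 0.106, edgeR), and DESeq2 called it (adjusted p = 0.00663). Over 21 alternatives its fold change ran from 0.41 to 0.90 and its adjusted p from 0.00663 to 0.322.

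**Figure D4:**
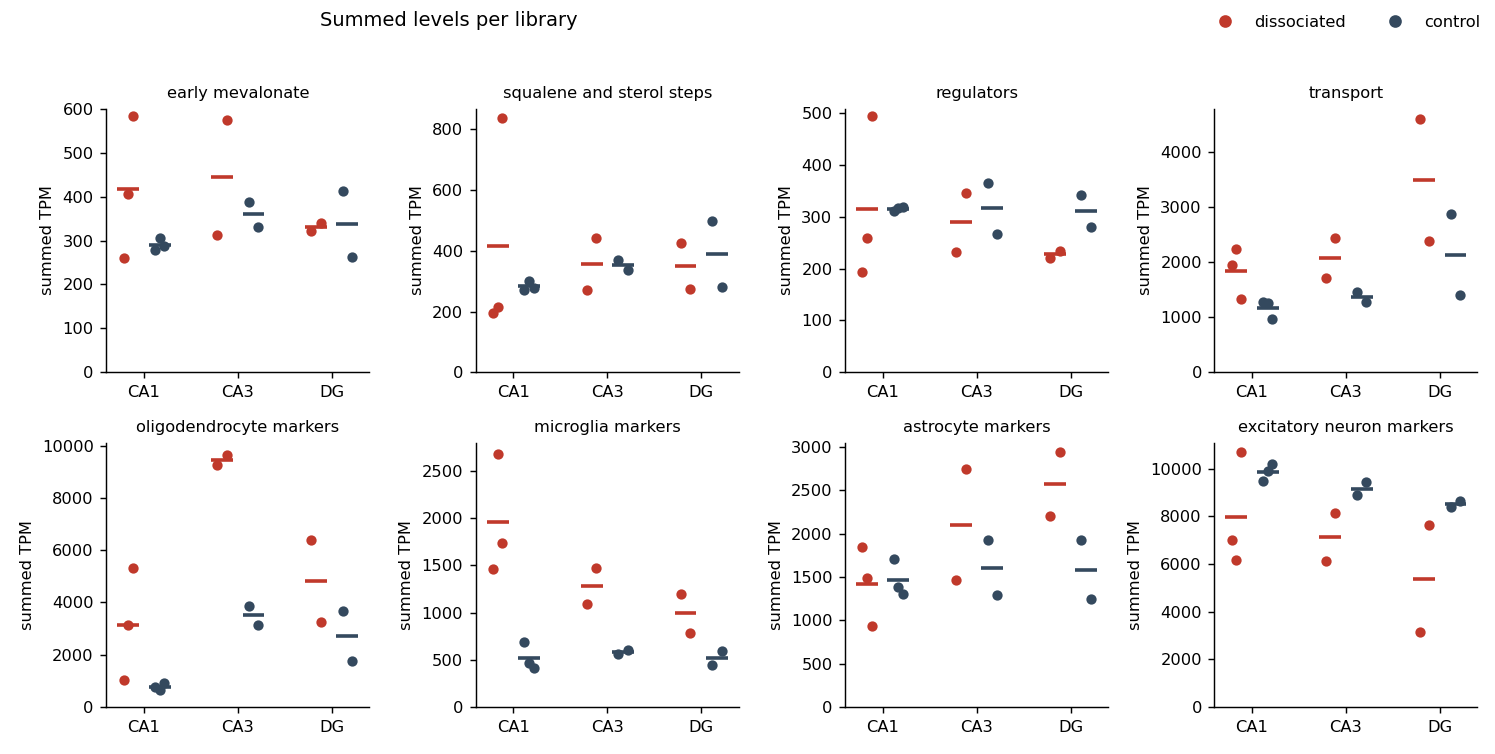
Summed TPM per library (points) and group means (bars) for the 4 role groups of cholesterol genes and for 4 lists of cell markers, with dissociated libraries left of controls in each region. Microglial sums are higher after dissociation in every region, whereas sums of the sterol steps overlap between treatments, at 195 to 836 TPM after dissociation and 271 to 498 TPM in controls.

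Within single regions the members also went uncalled, and the member medians differed in sign between regions. In CA1, where 0.191% of all genes were called, no member was called by edgeR or DESeq2 and 7 had an unadjusted p under 0.05 (1464 of all genes). Those were Insig1, Apoe, Mvd, Pmvk, Acat2, Fdps and Sqle, with log2 fold changes from 0.92 to 1.89, all higher after dissociation. The median over members in CA1 was 0.48, beside −0.06 over all genes, and the 7 early mevalonate genes had a median of 0.92. The lowest adjusted p was 0.262, for Insig1 at 1.45 ± 0.47. Without the 3 shallow libraries the member median in CA1 was 0.16, and without CA1 dissociated replicate 3 alone it was 0.12.

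In CA3, where edgeR called 0% of all genes, no member was called by either tool and 3 had an unadjusted p under 0.05 (523 of all genes). They were Idi1 at 1.35 ± 0.46, Fdps at 1.08 ± 0.49 and Apoe at 1.00 ± 0.46. The member median was 0.45, beside −0.05 over all genes. Neither CA3 dissociated library was shallow. That median rested on single libraries: it was −0.023 without CA3 dissociated replicate 4 and 0.82 without CA3 dissociated replicate 1.

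In DG the member median lay at −0.59, beside −0.27 over all genes. Setting Mvd and Lss to their bounds could not move it, since both bounds also lie below it. The member median was −0.075 by DESeq2 and 0.048 without DG control replicate 2. Of all genes 0.161% were called there, no member was called by either tool, and 3 had an unadjusted p under 0.05 (1839 of all genes): Lss and Mvd, both at 0 after dissociation, and Abca1 at 1.42 ± 0.66. Lss, lanosterol synthase, had 0 counts in both dissociated DG libraries and 23.5 and 20.2 CPM in controls. Taken as 3 counts over the pooled group, 4.48 CPM, it was at least 4.63-fold below the pooled control level of 20.8 CPM. Mvd was likewise at 0 and had 25.7 and 7.04 CPM in controls. By the same floor it was at least 2.31-fold below the pooled control level of 10.4 CPM. These bounds leave out the spread of the controls, and the Mvd control at 7.04 CPM lies nearer the floor. Both dissociated DG libraries were small, at 65887 and 598775 counts, and intervals and floors cover counting error only. Of the 4 transport genes 3 had positive fold changes in DG, none of them with every dissociated library above the controls, and no test set this group against the other members.

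Whether the libraries of the groups were apart within a region was counted without a test. In CA1, 6 members were higher in every dissociated library, beside 7.16% of all genes, and 1 was lower, beside 16%. The 6 were Acat2, Pmvk, Mvd, Idi1, Insig1 and Apoe, 4 of them early mevalonate genes. In CA3, 8 members were higher, beside 15.7% of all genes, and 2 were lower, beside 18.2%, the 8 being Mvk, Idi1, Fdps, Cyp51, Tm7sf2, Insig1, Apoe and Abcg1. In DG, 3 members were higher, beside 8.25%, and 11 were lower, beside 32.2%, the 3 being Idi1, Sc5d and Srebf1. The 11 were 4 early mevalonate genes, 4 of the sterol steps, 2 regulators and Stard4. Several of the 11 had 0 or 1 count in DG replicate 3, where a floor of 3 counts is 46.8 CPM. These numbers of members rest on few libraries and moved when libraries were left out. A group with fewer libraries meets the rule more easily for any gene. The share over all genes was not counted for such smaller groups. Idi1 is the only member in the higher group of all 3 regions.

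**Figure D5:**
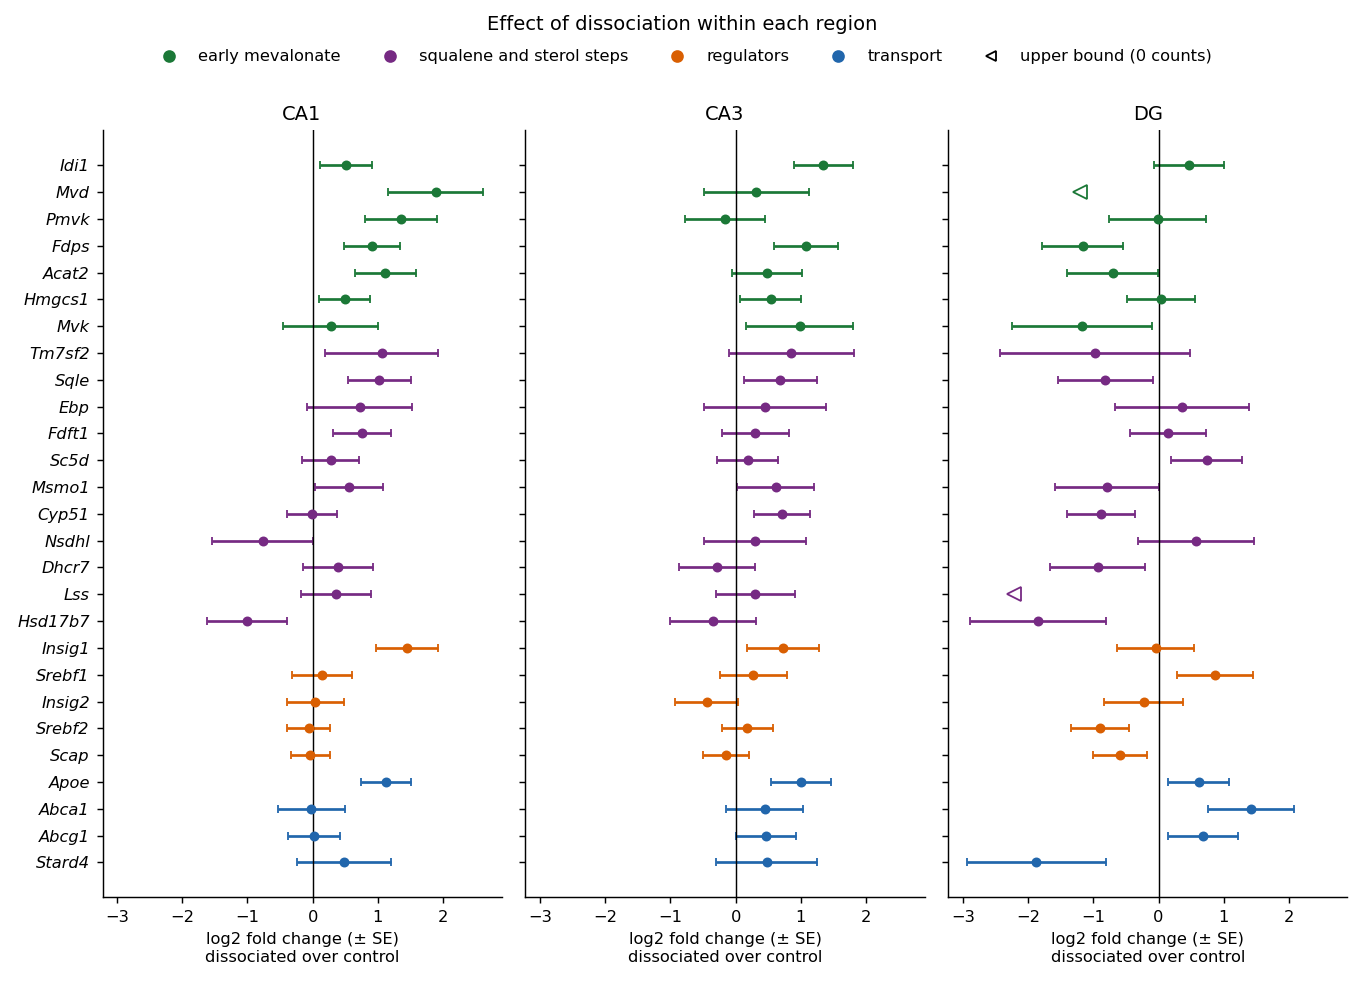
Log2 fold change of dissociated over control tissue within CA1, CA3 and DG, with SE bars and colours by role, for the 27 genes. Open triangles mark Mvd and Lss in DG, which were at 0 counts after dissociation and are drawn at their upper bounds, while Idi1 lies right of 0 in all 3 regions.

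The difference in the effect between regions was tested directly. For CA1 minus DG, edgeR called 0.00766% of all genes and no member, with 5 members at an unadjusted p under 0.05 and a lowest adjusted p of 0.154, for Lss. For CA3 minus DG it called 0% of all genes and no member, with 4 at an unadjusted p under 0.05. For CA1 minus CA3 it called 0% of all genes and no member, and none had an unadjusted p under 0.05. DESeq2 called no member in any of the 3. Among members with counts in every group, Fdps had the smallest unadjusted p, with the effect in CA3 exceeding that in DG by 2.24 ± 0.79 on the log2 scale (adjusted p = 0.386, edgeR). The contrasts share libraries, so they are not independent of each other.

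Regions were compared over both treatments, with treatment as a term, because subregions of the hippocampus differ in their neurons and in the white matter around them. Between CA1 and DG, where 4.06% of all genes were called, no member was called by edgeR and 4 had an unadjusted p under 0.05 (2050 of all genes). Srebf2 was higher in CA1 by 0.83 ± 0.28 on the log2 scale (adjusted p = 0.113, edgeR), and DESeq2, which called 7.97% of all genes there, called it at 0.80 ± 0.28 (adjusted p = 0.0499). With 1 library left out its edgeR adjusted p ran from 0.0164 to 0.315, and it was called without DG control replicate 2. Apoe, Srebf1 and Sc5d were lower in CA1, at −0.80 ± 0.29, −0.91 ± 0.36 and −0.72 ± 0.34 (adjusted p = 0.133, 0.192 and 0.306, edgeR), and with 1 library left out Apoe ran from −1.02 without DG dissociated replicate 4, where it was called, to −0.40 without DG control replicate 2 (adjusted p = 0.0370 to 0.521). In the same contrast all 12 oligodendrocyte markers and all 10 astrocyte markers had negative fold changes, with medians of −1.25 and −0.51, and their part was not tested.

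Srebf2 had 255, 171 and 346 CPM in dissociated and 277, 256 and 285 CPM in control CA1. In DG it had 125 and 90.9 CPM after dissociation and 230.2 and 149.7 CPM in controls. CA1 stood above DG within each treatment, with no overlap. Between CA3 and DG 1.77% of all genes were called, no member was called by edgeR or DESeq2, and 1 had an unadjusted p under 0.05 (1572 of all genes), Hsd17b7 at 1.32 ± 0.56. Without DG control replicate 2 edgeR called Sqle there, higher in CA3 by 1.56 (adjusted p = 0.0482). Between CA1 and CA3 0.115% of all genes were called, no member was called by either tool, and none had an unadjusted p under 0.05 (702 of all genes). The lowest adjusted p among members there was 0.953, for Stard4. In that contrast all 12 oligodendrocyte markers had negative fold changes with a median of −1.84, 2 of them lower in CA1 by the test.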

How the data were processed

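Estimated counts per gene symbol were deposited by the authors in 1 table of 22485 symbols. Each value lay within 0.5 of the kallisto estimates of that symbol's transcripts added up, so the table is that sum, rounded. TPM per transcript, per the file headers, was summed by symbol. The submitters' processing notes name FastQC, cutadapt, kallisto and DESeq2 without versions, and state no genome build, annotation or strand. Gene positions are those of GENCODE M21 (GRCm38), and promoter windows those of RefSeq (GRCm38.p6).

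edgeR 4.0.16 (R 4.3.3) was run over all 14 libraries, after filterByExpr on the 6 groups (minimum count 10, minimum total 15) and TMM scaling. An additive model of region and treatment gave the comparison over regions and the region contrasts, and a model with 1 mean per group gave effects within regions and their differences. A gene was called when its Benjamini-Hochberg adjusted p over 13063 genes was under 0.05. Standard errors come from the F statistic. DESeq2 1.42.0 and limma 3.58.1 on log2(TPM + 1) were alternatives. Scripts were tested on simulated data. The 12 members with the smallest unadjusted p over regions are given with every library's value. The members, the gene lists and this rule were chosen with earlier results of these data known.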

Additional observations from a re-analysis of the deposited data

Results flagged for a closer look

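For 5 members the dissociated libraries all lay above the controls in one region and all below them in another, so the difference between the regions' effects was looked at again. Acat2 was higher after dissociation in CA1 and lower in DG, a difference of 1.82 ± 0.84 on the log2 scale with an adjusted p of 0.356 by edgeR. Mvd did the same, with an adjusted p of 0.163, but it was at 0 in both dissociated DG libraries and its fitted difference is no bound. Mvk, Fdps and Cyp51 were higher after dissociation in CA3 and lower in DG, by differences of 2.16 ± 1.36, 2.24 ± 0.79 and 1.61 ± 0.68 (adjusted p = 0.627, 0.386 and 0.451, edgeR). In dissociated DG replicate 3 Mvk was at 0, Fdps and Acat2 at 1 count and Cyp51 at 3 counts. A floor of 3 counts there is 46.8 CPM, above every DG control of Mvk, Mvd, Fdps and Acat2. That library therefore cannot place these genes below the controls. None of the 5 differences passed the threshold. The dissociated DG libraries held 65887 and 598775 counts, and the part of depth in these patterns was not tested. No group had enough libraries for a check of single outlying values.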

How the results depend on the processing

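The alternatives were planned for the members, and running them on the markers, the further lists and 3 genes outside the set was chosen after seeing the data. Of 567 treatment values of single members under them, 518 kept their direction and side of the threshold, 8 became called and 41 changed sign, in 13 members. Over the 3 regions 1 member was called higher with RLE scaling, 1 without the filter on low counts and 2 with DESeq2, and 0 to 1 with 1 library left out. For single regions and contrasts, the share of all genes called under the alternatives was not counted, except by DESeq2 in CA1 against DG (7.97%). The member counts given for them, with the replicate block too, are therefore no result about the members. Without the filter 2 members were called higher in CA1 and 1 lower in DG. In CA1 against DG 1 was called higher and 1 lower, and 2 were called for the effect in CA1 minus DG. DESeq2 called 1 member, and leaving out single libraries 0 to 1, higher in CA1 against DG, with 0 to 1 lower there and 0 to 1 higher in CA3 against DG. Without the 3 shallow libraries, which leaves CA1 and DG 1 dissociated library each, assumed to vary like the rest, 2 members were called lower in DG, and 1 each for the effects in CA1 minus DG and in CA3 minus DG.

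The median of all genes was −0.11 over regions, 0.00 by DESeq2 and −0.64 on log2(TPM + 1), and members are to be read against it. On log2(TPM + 1) the medians were −0.26 for all members, 0.12 for early mevalonate, −0.50 for sterol steps, −0.37 for regulators and −0.15 for transport. On that scale Mvk had −1.18, Mvd −0.78, Fdft1 −0.083, Sqle −0.051, Cyp51 −0.40, Tm7sf2 −0.50, Ebp −0.94, Abca1 −0.26 and Abcg1 −0.034. The regulators' median was −0.078 with RLE scaling and −0.075 with DESeq2, and the DG median was −0.075 with DESeq2. Without the 3 shallow libraries the medians were 0.20 for all members, 0.35 for early mevalonate, 0.050 for sterol steps and 0.16 for all members in CA1. With 1 library left out they ran from 0.22 to 0.48 for all members, 0.34 to 0.71 for early mevalonate, 0.011 to 0.42 for sterol steps and −0.19 to −0.057 for regulators. Over the same fits they ran from 0.12 to 0.72 in CA1, −0.023 to 0.82 in CA3 and −0.74 to 0.048 in DG.

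Members near 0 changed sign most often. Nsdhl had 0.067 with RLE scaling, 0.061 with DESeq2 and 0.20 without the shallow libraries. Stard4 had 0.073 with RLE scaling, 0.025 with upper-quartile scaling, 0.0084 without the filter, 0.051 with DESeq2 and 0.20 without the shallow libraries. Msmo1 had −0.035 without the shallow libraries. With 1 library left out Mvk ran from −0.10 to 0.42, Lss from −0.48 to 0.18, Cyp51 from −0.15 to 0.21, Nsdhl from −0.40 to 0.15 and Stard4 from −0.25 to 0.29. The cause of these changes was not tested.

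Counts of members without overlap moved as well. Groups with fewer libraries meet that rule more easily for any gene. For the sets with libraries left out the share over all genes was not counted, so those counts are no result about the members. Without the shallow libraries there were 13 higher and 5 lower in CA1, 1 lower in CA3 and 7 higher in DG, and RLE scaling left 1 lower in CA3. With 1 library left out there were 6 to 10 higher and 1 to 3 lower in CA1, 8 to 21 higher and 1 to 8 lower in CA3, and 3 to 10 higher in DG.

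Deviations of libraries with the same replicate number correlated at −0.03, 0.01 and 0.02 in CA1, at 0.07 in CA3 and at −0.17 in DG. In CA3 and DG, with 2 libraries a group, deviations mirror each other, so these correlations cannot show or exclude pairing. In CA1, dissociated replicates 2 and 3 were shallow. With the replicate block 1 member was called higher over the regions, 1 in CA1 and 1 in DG, the regulators' median was −0.031, Lss had 0.16 and Stard4 0.44. Over all genes the replicate block called 216 higher and 164 lower, against 95 and 6 without it, 411 and 67 with DESeq2, 275 and 70 without the filter, 7 and 48 on log2(TPM + 1), and 14 and 0 without the shallow libraries. Depth limits the dissociated DG libraries most, where a floor of 3 counts is 46.8 and 4.96 CPM.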
